A study of Mus musculus with 4 samples.

Results

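The membrane adenylyl cyclases are the 9 enzymes encoded by Adcy1 to Adcy9, and their RNA was measured in E14TG2a, a line of mouse embryonic stem (ES) cells. The members were chosen by gene name: each is a row of the per-library read counts, and all 9 were found among the 41543 gene symbols counted. Enough reads for a test fell on 7 of them, and Adcy4 and Adcy8 did not pass the filter on low counts, which 16112 genes passed. The family was picked with earlier results of this same comparison in view, so its differences between the groups are given as a description. No p-value is given for a member.

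Both groups were grown in serum with the cytokine LIF on gelatin-coated plates. Control cells, labelled only as such, gave 2 libraries, and cells edited by CRISPR/Cas9 to knock out (KO) KAT6A, a histone acetyltransferase, gave 2 libraries. Whether 2 libraries with the same genotype stem from different cultures, or from more than 1 edited clone, is not stated, so the p-values reflect no more than the spread of these 4 libraries, and that spread may be technical. Total counts ran from 27494041 to 37354623 per library. The 2 controls lay closer together than the KO-labelled pair: the SD over genes of the log2 ratio within a pair was 0.26 for the controls and 0.46 for the KO-labelled libraries. Kat6a itself stood at 145 and 143 CPM (read counts brought to a common library size, with a scaling for composition) in the controls, at 242 CPM in the library labelled KO 1 and at 86.4 CPM in the library labelled KO 2, a log2 fold change of 0.19 ± 0.41 (SE). Kat6a RNA was thus above both controls in the library labelled KO 1 and below both in the library labelled KO 2. The edited position is not stated, so the level of this RNA cannot show whether the gene was disrupted. All directions given here depend on the labels.

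Adenylyl cyclases turn ATP into cyclic AMP (cAMP), the messenger that activates protein kinase A (PKA), the exchange factors Epac1 and Epac2, and cyclic nucleotide-gated channels. The membrane enzymes carry a pair of transmembrane domains and a pair of catalytic domains, and the alpha subunit of the stimulatory G protein Gs activates all of them. They differ in their other inputs. ADCY1, ADCY3 and ADCY8 respond to calcium and calmodulin, ADCY2, ADCY4 and ADCY7 are stimulated by G protein beta-gamma subunits together with Gs, ADCY5 and ADCY6 are inhibited by Gi and by free calcium, and ADCY9 is the member least sensitive to the plant compound forskolin.

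ES cell markers fixed for the check of cell type were abundant in each library, with a summed level of 5257 to 5281 CPM over the 10 genes in the controls and of 6609 to 7066 CPM in the KO-labelled libraries. Esrrb, Tfcp2l1 and Dppa5a, 3 of the 10, were called higher (edgeR), and DESeq2 called 5. Of markers of other cells, the 7 primitive endoderm markers summed to 244 and 248 CPM in the controls and to 51.8 and 117 CPM in the libraries labelled KO 1 and KO 2, and 4 of the 7 were called lower. Of 6 tested trophoblast markers 3 were called lower, with sums of 76.3 to 83.3 CPM in the controls and 63.5 to 68.3 CPM in the KO-labelled libraries. Mesoderm markers summed to 10.9 to 13.5 CPM over the 4 libraries, with none of 4 called (edgeR, none at an unadjusted p under 0.05, none by DESeq2). Finally, of 6 tested neural markers 3 were called higher and 1 lower, with sums of 88.6 and 98.0 CPM in the controls and 130 and 114 CPM in the KO-labelled libraries. The 8 fibroblast markers summed to 21.7 to 21.8 CPM in the controls and 25.3 to 30.0 CPM in the KO-labelled libraries, none of 4 tested was called (edgeR, 1 at an unadjusted p under 0.05, none by DESeq2), and Lum was at 0 in each library. The part of these cells in the cyclase values was not tested. In bulk RNA, fewer cells of a type and less RNA per cell cannot be told apart.

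The calcium-responsive enzymes Adcy3 and Adcy1 supplied most of the membrane cyclase RNA in these cells. Levels were compared between genes per kilobase of annotated exon. Adcy3 had 4.02 and 3.88 CPM per kb in the controls and 5.96 and 5.14 CPM per kb in the libraries labelled KO 1 and KO 2. Adcy1 followed with 1.88 and 1.72 CPM per kb in the controls and 2.87 and 2.67 CPM per kb in the KO-labelled libraries. The ranges of Adcy3, Adcy1 and the next member did not touch in either group. Against all tested genes these were middling levels: 53.1% of them had a lower level per kb than Adcy3, and 40.2% a lower level than Adcy1.

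Adcy6, Adcy9, Adcy7 and Adcy2 formed a lower tier whose order was not resolved. Their control libraries ran from 0.718 CPM per kb for Adcy2 to 1.03 CPM per kb for Adcy6, and each overlapped its neighbour in the order. In the KO-labelled libraries the same 4 genes ran from 0.708 CPM per kb for Adcy6 to 1.37 CPM per kb for Adcy2, again with overlapping neighbours, so Adcy6 was first among them by mean in the controls and last in the KO-labelled libraries. Taking the longest transcript as the length in place of all exons left 5 of the 9 members at their place in the order of means over all libraries, and the other 4 were these. Adcy5 was lower still, at 0.172 and 0.150 CPM per kb in the controls and 0.316 and 0.187 CPM per kb in the libraries labelled KO 1 and KO 2. Adcy4 and Adcy8 were near the limit of detection.

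**Figure D1:**
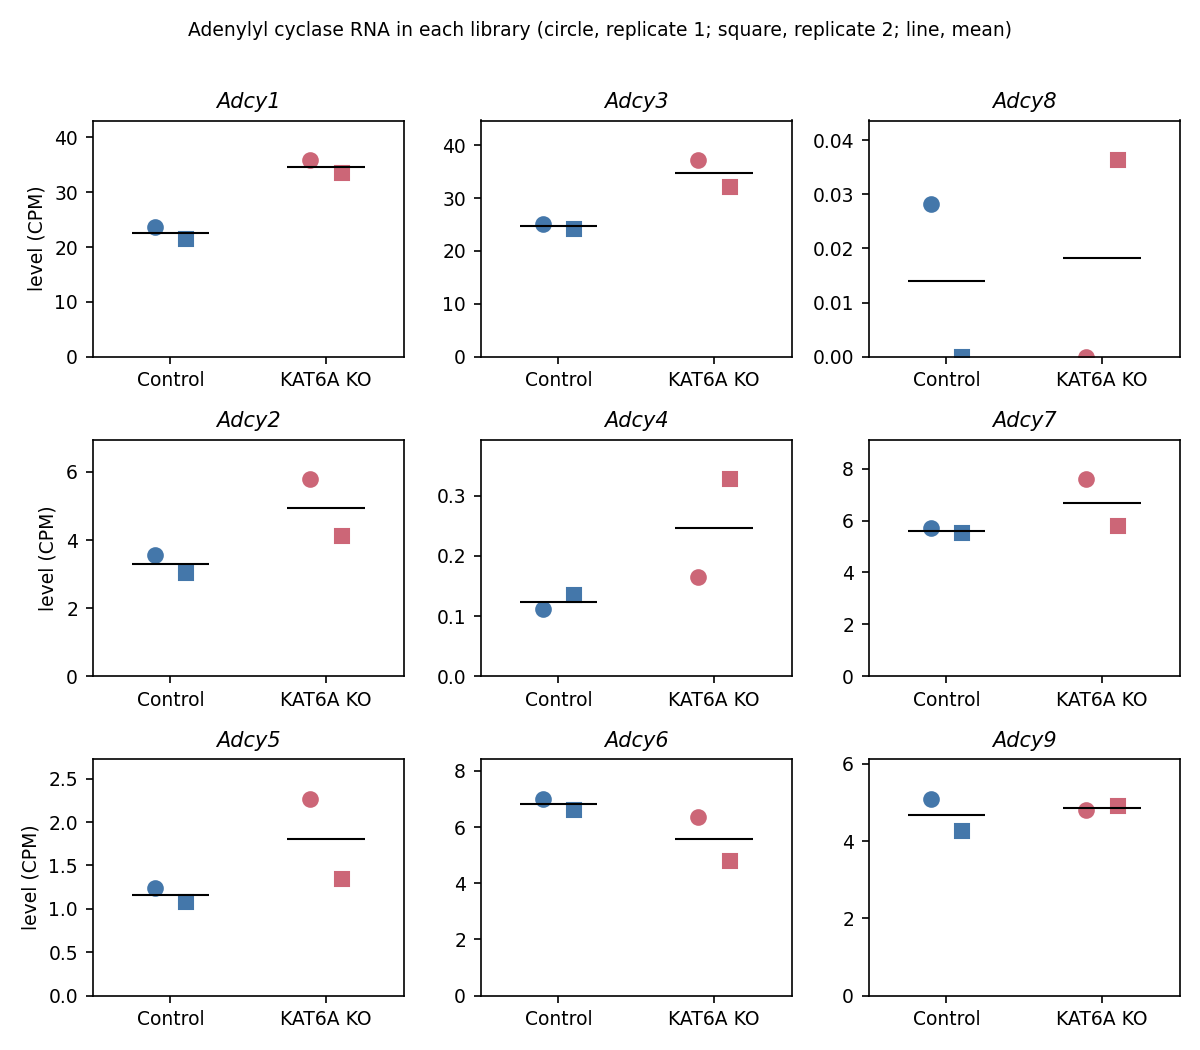
Level of each membrane adenylyl cyclase in CPM (vertical axis, from 0, scaled per panel) in the 2 control (blue) and 2 KO-labelled (red) libraries. Circles are replicate 1, squares replicate 2 and lines group means. Adcy1 and Adcy3 show the widest gap between groups for their spread, while Adcy9 overlaps and Adcy8 rests on 1 read in each of 2 libraries.

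The summed level of the 9 members was 9.82 and 9.11 CPM per kb in the controls, and 13.5 and 11.6 CPM per kb in the libraries labelled KO 1 and KO 2. The KO-labelled mean was 1.33 times the control mean, and the groups did not overlap. Adcy3 held 41.0% and 42.6% of that sum in control cells and 44.0% and 44.4% in the KO-labelled libraries. The share of Adcy1 was 19.2% and 18.9% in control cells and 21.2% and 23.1% in the KO-labelled libraries. The share of Adcy6 was 10.5% and 10.7% in control cells and 6.94% and 6.13% in the KO-labelled libraries. By regulatory class, the calcium- and calmodulin-responsive enzymes made up 60.2% and 61.4% in control cells and 65.2% and 67.6% in the KO-labelled libraries. The class inhibited by both Gi and free calcium, Adcy5 and Adcy6, made up 12.3% and 12.4% in control cells and 9.27% and 7.75% in the KO-labelled libraries. The class stimulated by beta-gamma subunits overlapped between the groups, at 17.5% and 17.2% in control cells and 18.7% and 16.5% in the KO-labelled libraries.

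**Figure D2:**
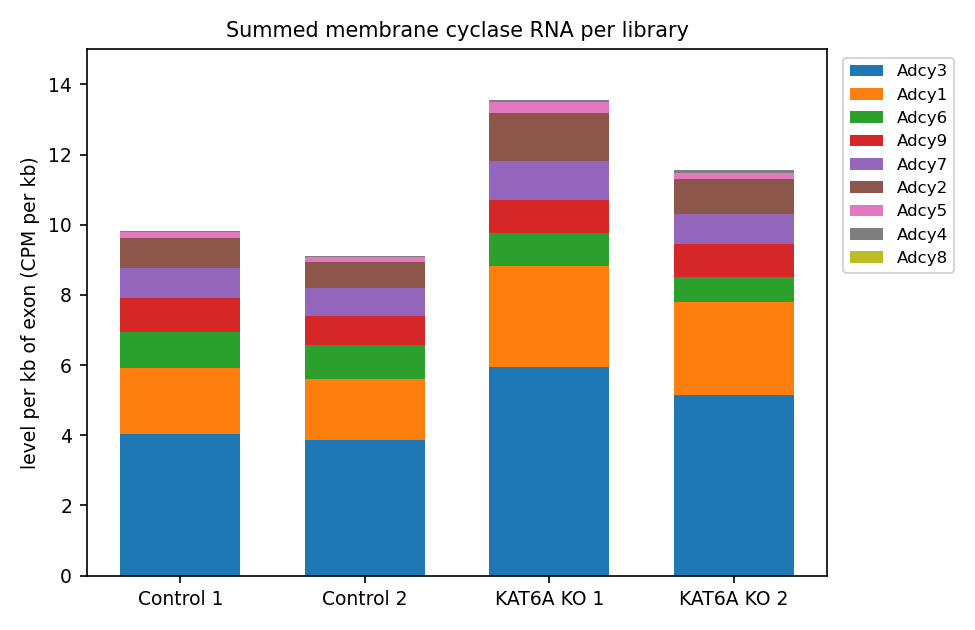
Summed level of the 9 members in each library, in CPM per kb of exon (vertical axis, from 0), with each member as a coloured segment. Adcy3 and Adcy1 are the lowest 2 segments in each bar, and the KO-labelled bars reach 13.5 and 11.6 against 9.82 and 9.11 in the controls.

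Among the calcium-responsive enzymes, Adcy1, known as a neuronal cyclase that couples calcium signals to cAMP, stood at 23.6 and 21.5 CPM in control cells and at 35.9 and 33.4 CPM in the libraries labelled KO 1 and KO 2. Both KO-labelled libraries lay well above both controls, and the gap between the groups was larger than the spread inside either. The log2 fold change, KO over control, was 0.62 ± 0.11 (SE), or 1.54-fold. Adcy3, best known as the cyclase of olfactory neurons and of primary cilia, reached 25.1 and 24.2 CPM in control cells, then 37.2 CPM in the library labelled KO 1 and 32.1 CPM in the library labelled KO 2. The groups again did not overlap, with a log2 fold change of 0.49 ± 0.12 (SE), or 1.41-fold. Adcy3 shares 1380 bases of exon with Cenpo, a centromere protein gene on the opposite strand, and no source used here gives the strand setting of the counting. Cenpo had 21.0 and 19.6 CPM in the controls and 20.7 and 19.7 CPM in the KO-labelled libraries, with overlapping groups and a log2 fold change of -0.01. Adcy8, the third enzyme of this class, had 1 and 0 reads in control cells and 0 and 1 in the KO-labelled libraries, below the floor of 3 counts over the group, so no fold is given.

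Among the enzymes stimulated by beta-gamma subunits, Adcy2 and Adcy7 were in the lower tier and Adcy4 was barely detected. Adcy2 measured 3.57 and 3.02 CPM in control cells, with 5.78 CPM in the library labelled KO 1 and 4.11 CPM in the library labelled KO 2, a log2 fold change of 0.59 ± 0.23 (SE). Its groups did not overlap, but the KO-labelled libraries lay further from each other than the controls did. Adcy7, common in blood cells, had 5.71 and 5.51 CPM in the controls and 7.59 and 5.78 CPM in the libraries labelled KO 1 and KO 2, a log2 fold change of 0.26 ± 0.19 (SE). Its library labelled KO 2 was barely above the controls. Adcy4 had 4 and 5 reads in control cells and 5 and 9 in the KO-labelled libraries, a ratio of 1.97. The 95% interval of that ratio, by the exact binomial method and for counting error alone, was 0.793 to 5.15, so no difference was detectable at this depth.

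Of the class inhibited by both Gi and free calcium, Adcy5 and Adcy6, neither was called (edgeR or DESeq2). Adcy5, the main cyclase of the striatum, measured 1.24 and 1.08 CPM in control cells, with 2.27 CPM in the library labelled KO 1 and 1.35 CPM in the library labelled KO 2. Its log2 fold change of 0.65 ± 0.32 (SE) was the largest in size among the 7, with the largest SE, and the library labelled KO 1 stood at 1.96 times the control mean against 1.16 times for the library labelled KO 2. Adcy6, a cyclase of heart and kidney, had 7.01 and 6.61 CPM in the controls and 6.37 and 4.80 CPM in the libraries labelled KO 1 and KO 2. It was the 1 member of the 7 with a log2 fold change below 0 (-0.28 ± 0.19, SE), and its library labelled KO 1 lay just under the controls. Adcy9, which is widely expressed, had 5.09 and 4.27 CPM in the controls and 4.80 and 4.91 CPM in the KO-labelled libraries. Its groups overlapped, with a log2 fold change of 0.05 ± 0.18 (SE).

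Over the 7 tested members the log2 fold change was above 0 for 6, with a median of 0.49, against a median of 0.01 over all tested genes, of which 50.4% lay above 0. Both KO-labelled libraries lay above both controls for 5 members and below them for 1, where 31.5% of all tested genes lay above and 32.8% below. In the fit across all genes (edgeR's quasi-likelihood test, Benjamini-Hochberg adjusted p under 0.05) 2 members, Adcy1 and Adcy3, were called, both higher, and none lower. An unadjusted p under 0.05 was found for 3 members, all higher, and DESeq2 called the same 2. In that fit 14.3% of all tested genes were called, 5.76% higher and 8.57% lower. Nothing is read from these counts, since the family was picked with this comparison known. In the authors' deposited table of their own comparison the log2 fold changes were 0.58 for Adcy1 and 0.46 for Adcy3, and these 2 members had an adjusted p under 0.05 there too. The authors' deposited table gives 0.45 for Adcy2, 0.37 for Adcy5, 0.21 for Adcy7, 0.05 for Adcy9 and -0.23 for Adcy6. It rests on the same libraries. For all 7 members its values are smaller in size than those of the DESeq2 run made here, such as 0.65 for Adcy5. The cause was not tested.

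These values moved with single libraries. Without control 1 or without control 2 far fewer of all tested genes were called (edgeR) than with every library included. No member kept its call in these fits, a loss that is not particular to the members. Without the library labelled KO 1, Adcy1 and Adcy3 were called higher and Adcy6 lower. Without the library labelled KO 2, the 5 members Adcy1, Adcy2, Adcy3, Adcy5 and Adcy7 were called higher. In these last 2 fits the spread came from the closer control pair alone, and 50.1% and 43.9% of all tested genes were called. The log2 fold change of Adcy1 stayed between 0.56 and 0.68 over the 4 fits, and that of Adcy3 between 0.38 and 0.59. That of Adcy5 ran from 0.22 to 0.96, that of Adcy2 from 0.32 to 0.81, that of Adcy7 from 0.04 to 0.43 and that of Adcy6 from -0.50 to -0.10. For these 4 both ends came from the fits without a KO-labelled library, and that of Adcy9 ran from -0.07 to 0.18. For 5 of the 7 members the library labelled KO 2 lay closer to the control mean than the library labelled KO 1.

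**Figure D3:**
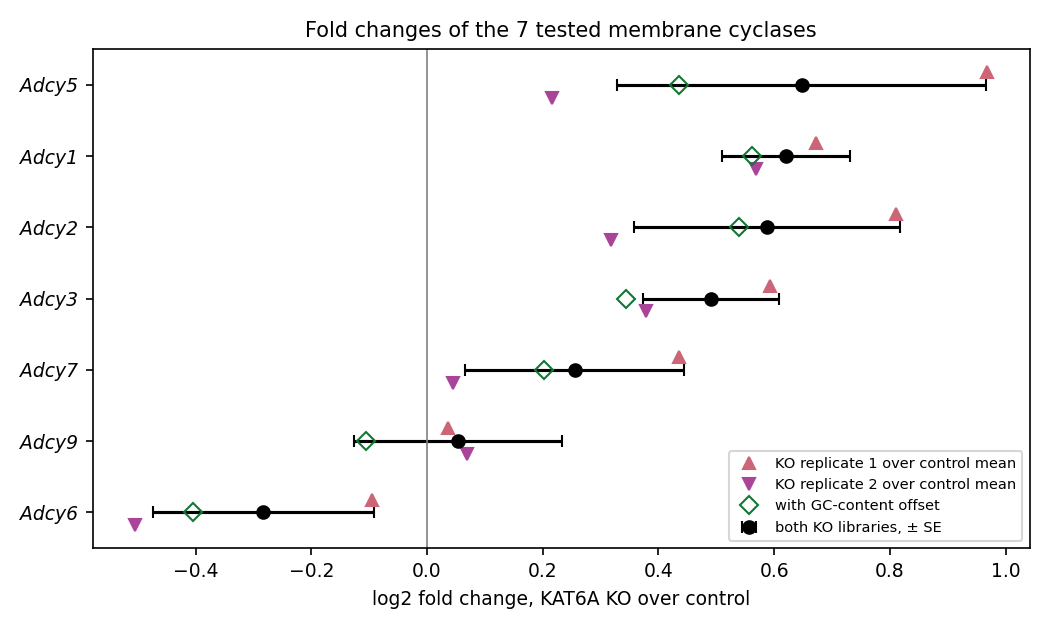
Log2 fold change, KO over control, of the 7 tested members (horizontal axis). Black points with bars are the fit over both KO-labelled libraries ± SE, triangles each KO-labelled library over the control mean, and open diamonds the fit with a GC-content offset. Adcy1, Adcy2, Adcy3, Adcy5 and Adcy7 lie above 0 in each of these, Adcy6 lies below 0 in each, and Adcy9 changes sign with the offset.

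Fold changes in these libraries also moved with the GC content of transcripts, from a median log2 fold change of -0.22 in the lowest GC quintile of tested genes to 0.23 in the highest, and the members are GC-rich. Of the 7 tested, 4 (Adcy1, Adcy2, Adcy6 and Adcy7) lay in the fourth quintile, where the median log2 fold change was 0.11. The other 3 (Adcy3, Adcy5 and Adcy9) lay in the fifth, where the median was 0.23. With an offset for GC content the log2 fold changes were 0.56 for Adcy1, 0.54 for Adcy2, 0.44 for Adcy5, 0.34 for Adcy3, 0.20 for Adcy7, -0.10 for Adcy9 and -0.40 for Adcy6. Adcy1 was then called and Adcy3 was not, and Adcy9 changed sign.

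Adcy1 was higher in the KO-labelled libraries while most genes of its chromosome were not. It lies on chromosome 11, at 7063489 to 7178506 on the plus strand of GRCm38 in GENCODE M21, and genes of this chromosome were lower in the KO-labelled libraries, with a median log2 fold change of -0.46 over 1319 tested genes. In all, 536 were called lower and 9 higher, and Adcy1 was among the 9. Of the 1319 genes, 22 (1.67%) had a higher log2 fold change, and Adcy1 lay 1.08 above the chromosome's median. Of the 5 tested genes nearest on either side, 9 of 10 were below 0, with a median of -0.29. Upstream, Ramp3, a receptor partner protein, had a log2 fold change of -0.23 ± 0.14 (SE). Downstream, Igfbp3, which binds insulin-like growth factors and starts 0.14 Mb from the start of Adcy1, had -0.45 ± 0.14 (SE). The checkpoint gene Hus1, which starts 1.93 Mb away, had -0.57 ± 0.08 (SE) and was the 1 neighbour called. The neighbours ran from -1.32 for Pkd1l1 to 0.46 for Gm24313, both under 1 CPM in each library. The neighbours were chosen by position after the value of Adcy1 was seen.

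**Figure D4:**
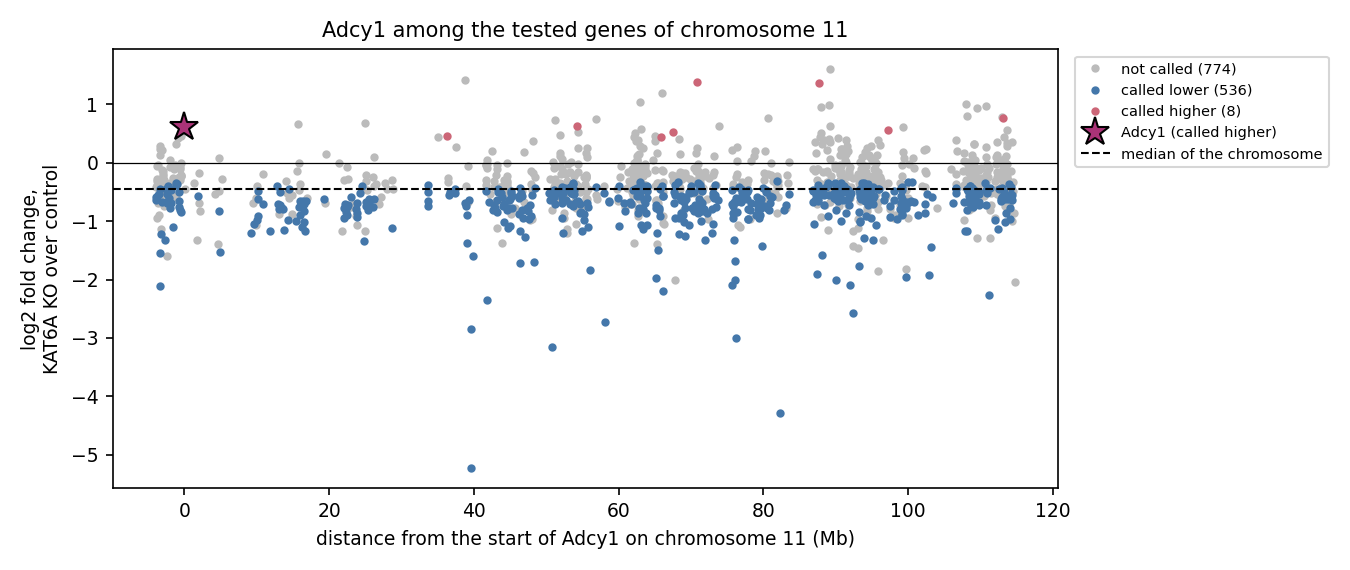
Log2 fold change, KO over control (vertical axis), of 1319 tested genes of chromosome 11 by distance from the start of Adcy1 in Mb (horizontal axis). Blue points were called lower, red higher and grey not called, the star is Adcy1, and the dashed line is the chromosome's median of -0.46.

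The other members lie on chromosomes with medians nearer 0. Adcy2, on chromosome 13 at 68620043 to 68999541 on the minus strand, had a log2 fold change 0.75 above its chromosome's median of -0.17. Adcy3, on chromosome 12 at 4133103 to 4213525 on the plus strand, lay 0.49 above a median close to 0. Adcy5, at 35154877 to 35305738 on the plus strand, and Adcy9, at 4287529 to 4420498 on the minus strand, share chromosome 16, whose median was -0.01, and lay 0.65 and 0.06 above it. Adcy6, on chromosome 15 at 98589973 to 98610076 on the minus strand, lay 0.38 below its chromosome's median, as the fold change of -0.28 stands against a median of 0.10. Adcy7, on chromosome 8 at 88272403 to 88329962 on the plus strand, lay 0.17 above a median of 0.09. Of the untested members, Adcy4 lies on chromosome 14 at 55769057 to 55784095 and Adcy8 on chromosome 15 at 64697084 to 64922296, both on the minus strand. Besides Cenpo over Adcy3, exons of Adcy2 overlap the antisense gene Gm35161 by 189 bases, with 0 or 1 read a library, and exons of Adcy6 overlap Gm29331, with 0 reads.

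CpG islands are stretches rich in the dinucleotide CG that cover many promoters, and the title of the series names such islands, where unmethylated, as sites to which KAT6A is recruited. The promoters of the members were therefore read. RefSeq windows on GRCm38.p6, of 250 bases before and 50 after a start site, were given for 7 of the 9 members, 10 windows in all. KAT6A binding and DNA methylation were not measured in these files. The 250 bases upstream of 4 starts are printed because they show the range. CpG-rich windows are those of a called member (Adcy1), a member whose groups did not overlap (Adcy2) and the member whose groups did (Adcy9). The window at the last start of Adcy7, which lies inside the gene, is CpG-poor. Capitals mark each CG dinucleotide, and each sequence runs 5′ to 3′ on the gene's strand.
Adcy1, chr11:7063183-7063432, plus strand: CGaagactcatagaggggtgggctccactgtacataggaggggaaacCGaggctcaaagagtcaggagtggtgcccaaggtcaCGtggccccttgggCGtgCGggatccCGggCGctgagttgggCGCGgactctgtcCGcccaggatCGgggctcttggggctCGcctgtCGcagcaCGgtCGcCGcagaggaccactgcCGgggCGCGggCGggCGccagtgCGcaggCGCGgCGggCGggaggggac
Adcy2, chr13:68999542-68999791, minus strand: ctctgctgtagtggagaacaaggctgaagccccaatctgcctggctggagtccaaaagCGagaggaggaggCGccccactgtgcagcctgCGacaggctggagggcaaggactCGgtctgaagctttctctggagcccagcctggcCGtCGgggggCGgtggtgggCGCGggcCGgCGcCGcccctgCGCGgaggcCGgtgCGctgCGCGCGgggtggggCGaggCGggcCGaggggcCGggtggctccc
Adcy9, chr16:4420499-4420748, minus strand: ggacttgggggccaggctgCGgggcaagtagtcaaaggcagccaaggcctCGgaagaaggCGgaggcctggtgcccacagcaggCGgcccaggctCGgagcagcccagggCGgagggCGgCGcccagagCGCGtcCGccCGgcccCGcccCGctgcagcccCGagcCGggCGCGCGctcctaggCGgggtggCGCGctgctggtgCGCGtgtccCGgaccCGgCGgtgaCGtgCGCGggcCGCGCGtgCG
Adcy7, chr8:88293954-88294203, plus strand: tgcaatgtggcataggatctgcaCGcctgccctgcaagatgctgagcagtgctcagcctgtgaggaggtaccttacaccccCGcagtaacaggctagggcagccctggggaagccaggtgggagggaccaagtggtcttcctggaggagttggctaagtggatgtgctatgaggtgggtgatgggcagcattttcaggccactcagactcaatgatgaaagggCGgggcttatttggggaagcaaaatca

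These upstream stretches hold 26 CG dinucleotides for Adcy1, 23 for Adcy2, 34 for Adcy9 and 3 for Adcy7. Over whole windows of 300 bases, the median of 32851 RefSeq promoter windows was 7. Adcy5 had 44, Adcy9 42, Adcy1 37, Adcy3 33 at its first start, Adcy2 32 and Adcy4 16. The first window of Adcy3 lies inside an exon of Adcy3 transcripts in GENCODE M21 that start further upstream. The second start of Adcy3 had 7, and the 3 starts of Adcy7 had 6, 5 and 4. These windows of Adcy7 begin at 88282742, 88288816 and 88293954, inside the gene, which starts at 88272403 in GENCODE M21. No window at that outer start of Adcy7 was given. The observed count of CG over that expected from base composition was 1.05 for Adcy5 and between 0.787 and 0.934 for Adcy1, Adcy2, Adcy9 and the first start of Adcy3, against a median of 0.38 over all windows. The members with the most CG dinucleotides, Adcy5 with 44 and Adcy9 with 42, had log2 fold changes of 0.65 ± 0.32 and 0.05 ± 0.18 (SE). Adcy6, the 1 tested member below 0, and Adcy8 had no window. A link between CG content and fold change was not tested.

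Short motifs were searched on both strands of the 10 windows. TGACGTCA, the full element bound by the cAMP-responsive factor CREB, was in none of them and in 1.79% of all promoter windows. Its shorter part TGACG, which the full element contains, was in 2 of the 10 (Adcy9 and the first start of Adcy7) and in 20.8% of all windows. GGGCGG, the GC box bound by Sp-family factors, was in 6 of the 10 and in 35.7% of all windows, with 5 matches each in Adcy1 and Adcy9, 4 in Adcy5, 3 in Adcy2 and 1 each in the first start of Adcy3 and the last of Adcy7. A match is a match of letters in this window only.

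The genes whose pattern over the 4 libraries was most like that of the most abundant member, Adcy3, were Ptp4a3, a phosphatase gene, and Ryr1, a calcium release channel gene. Likeness was the distance between log2 CPM values centred on the control mean, which was 0.03 and 0.04 for these genes. No background for such distances was computed, so no shared regulation is read from them. For Adcy5, the tested member with the largest log2 fold change in size, the nearest were the noncoding E230016M11Rik (0.05), the meiosis gene Sycp3 (0.07) and Sct, which encodes secretin (0.08). Among the members the nearest pair was Adcy2 and Adcy5 (0.17), followed by Adcy1 and Adcy3 (0.21), and the furthest was Adcy1 and Adcy6 (1.31).

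Around the cyclases, 13 lists of cAMP pathway genes held 107 tested genes, each counted once. Of these, 3 were called higher (2.80%) and 13 lower (12.1%), where 5.76% and 8.57% of all tested genes were. These numbers and their balance moved when single libraries were left out, and so did those over all genes. The median log2 fold change of the 107 pathway genes was -0.06. The lists were written with earlier results of these data known. Called genes are given below with edgeR's adjusted p.

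Upstream of the enzymes, the inhibitory alpha subunits went both ways. Gnai1 fell from 26.7 ± 2.40 to 16.4 ± 0.093 CPM (SD, n = 2; edgeR adjusted p = 0.018). Gnai3, the Gi subunit with the most reads in the controls, fell from 245 ± 2.02 to 185 ± 13.3 CPM (SD, n = 2; edgeR adjusted p = 0.032). Gnao1, the subunit of Go, rose from 4.49 ± 0.336 to 7.90 ± 0.579 CPM (SD, n = 2; edgeR adjusted p = 0.028). Neither stimulatory subunit was called (edgeR), neither had an unadjusted p under 0.05, and DESeq2 called neither. Gnal had 8.24 and 6.91 CPM in the controls and 7.95 and 4.29 CPM in the KO-labelled libraries, and Gnas had 4.02, 4.45, 4.96 and 6.51 CPM in the same order. Gnas shares 1469 and 988 bases of exon with 2 genes on the opposite strand, Gm20721 and Nespas, so its counts are uncertain, and it is named here for its role, after its values were seen. Gnal shares 852 bases with Mppe1 on the opposite strand. Among the other pathway genes named here, opposite-strand overlaps of exons also touch Rapgef3 (351 and 236 bases), Gnao1 (284), Cap1 (129), Gng12 (125), Pth1r (95) and Dusp1 (11), and Ep300 holds a miRNA gene of 54 bases on its own strand. Of 11 beta and gamma subunits, the partners that stimulate ADCY2, ADCY4 and ADCY7, Gng12 alone was called, lower by a log2 fold change of -0.63 ± 0.10 (SE, edgeR adjusted p = 0.017). Of 8 other regulators, among them the calmodulin genes, none was called by edgeR or DESeq2, and 2 had an unadjusted p under 0.05. The member with the most reads, Cap1, a cyclase-associated protein gene, had a log2 fold change of 0.06.

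Of 23 tested receptors that couple to Gs, 3 fell and none was called higher (edgeR), where 5 had an unadjusted p under 0.05 and DESeq2 called 1. Pth1r, the parathyroid hormone receptor, which is known as a parietal endoderm gene, measured 19.8 and 19.3 CPM in control cells, with 4.96 CPM in the library labelled KO 1 and 9.86 CPM in the library labelled KO 2, 2.65-fold lower (edgeR adjusted p = 0.029). Tshr, the thyrotropin receptor, fell 3.54-fold from 1.29 ± 0.040 to 0.364 ± 0.051 CPM (SD, n = 2; edgeR adjusted p = 0.018). Adrb1, the beta-1 adrenergic receptor, fell 2.25-fold (edgeR adjusted p = 0.048). Primitive endoderm markers were lower in the same libraries, as given above, and their part in these receptor values was not tested.

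Downstream, the phosphodiesterases that break cAMP down gave a call in each direction among 12 tested. Pde4c rose 2.05-fold, from 3.43 and 3.78 CPM in the controls to 8.51 and 6.26 CPM in the KO-labelled libraries (edgeR adjusted p = 0.027). Pde3b fell 1.78-fold, from 13.7 ± 0.166 to 7.69 ± 0.375 CPM (SD, n = 2; edgeR adjusted p = 0.017). Abcc4, which exports cAMP, had 139 CPM in each control and 189 and 166 CPM in the KO-labelled libraries and missed the threshold (edgeR adjusted p = 0.051), while DESeq2 called it.

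Of 8 tested genes of PKA subunits and inhibitors, Prkar1a alone was called, a regulatory subunit gene on chromosome 11 that fell from 332 ± 10.2 to 230 ± 24.3 CPM (SD, n = 2; edgeR adjusted p = 0.022). Of 9 tested A-kinase anchor proteins, which hold PKA near its substrates, 2 fell. Akap12 fell from 1051 ± 6.93 to 752 ± 47.0 CPM (SD, n = 2; edgeR adjusted p = 0.020), and Akap10, also on chromosome 11, fell from 88.2 ± 0.632 to 48.9 ± 4.15 CPM (SD, n = 2; edgeR adjusted p = 0.0092). Prkar1a lay close to the median of chromosome 11 (-0.46), at a log2 fold change of -0.53 ± 0.10 (SE). Akap10 lay further below that median, at -0.85 ± 0.10 (SE). Among 9 other cAMP receptors Rapgef3, which encodes Epac1, rose from 7.24 ± 0.309 to 12.2 ± 0.979 CPM (SD, n = 2; edgeR adjusted p = 0.024).

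At the end of the pathway, 3 of 13 tested CREB target genes fell and none was called higher (edgeR), where 6 had an unadjusted p under 0.05 and DESeq2 called 4. Nr4a3, a nuclear receptor gene, had 99 and 96 reads in control cells and 5 and 10 in the KO-labelled libraries, 10.2-fold lower (edgeR adjusted p = 0.0083), and without the library labelled KO 2 its log2 fold change went from -3.35 to -4.01. Nr4a1 and Dusp1, a MAP kinase phosphatase gene, fell by log2 fold changes of -0.49 and -0.62 (edgeR adjusted p = 0.020 and 0.031). These are immediate-early genes that many signals besides cAMP induce. Of the 8 CREB family and coactivator genes none was called by edgeR or DESeq2, and 2 had an unadjusted p under 0.05. The gene of these with the most reads, Ep300, had a log2 fold change of 0.21. Of the 16 called pathway genes, 4 (Pth1r, Tshr, Akap10 and Nr4a3) were called under each alternative that gave them an adjusted p. The other 12 lost their call without control 1 or without control 2, at edgeR adjusted p of up to 0.28. The GC-content offset also ended the calls of Gnai3 and Pde4c (edgeR adjusted p = 0.11 and 0.054), and that of Adrb1 also ended with upper quartile scaling, with DESeq2 and without chromosome 11.

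The soluble cyclase Adcy10, which bicarbonate rather than G proteins activates, is no member of the membrane family. It had 7 and 5 reads in control cells and 11 and 10 in the KO-labelled libraries, 2.21 times the control level with a 95% counting interval of 1.04 to 4.94. The interval covers counting error only, and edgeR did not call the gene (adjusted p = 0.16).

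**Figure D5:**
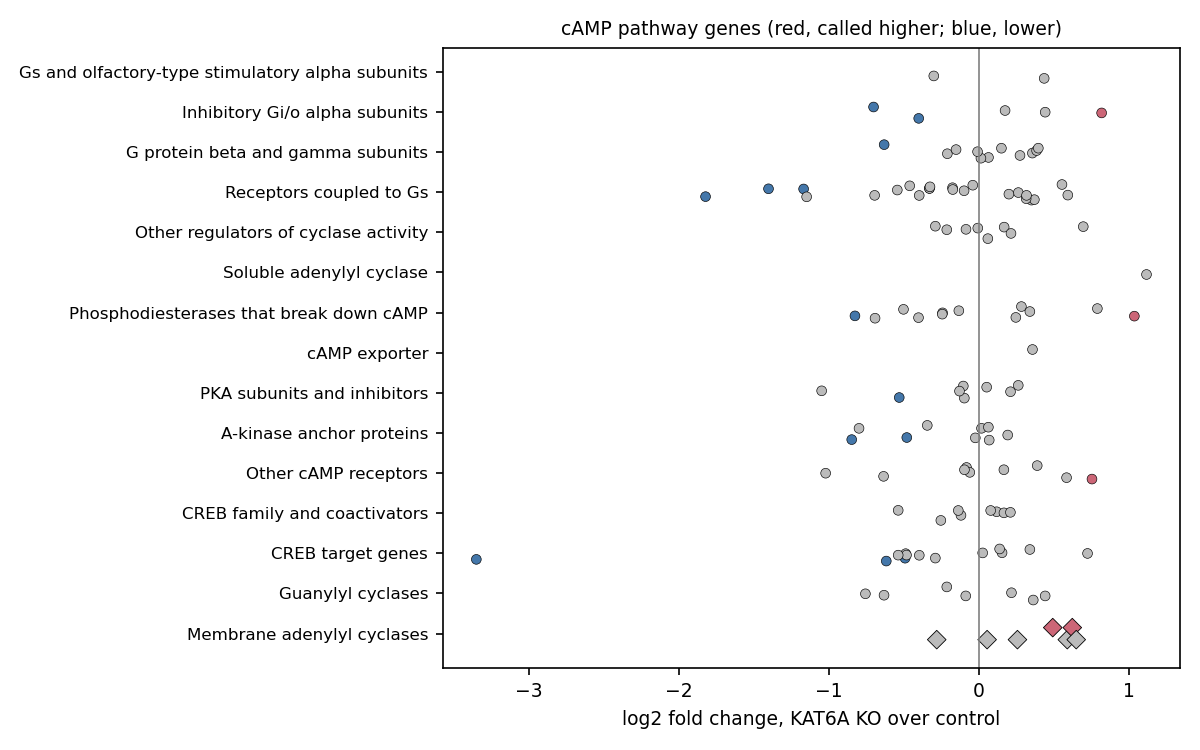
Log2 fold change, KO over control (horizontal axis), of the tested genes of each cAMP pathway list and of the guanylyl cyclases, 1 point a gene, with the 7 tested membrane cyclases as diamonds in the lowest row. Red points were called higher, blue lower and grey not called. The blue point furthest left is Nr4a3 at -3.35, and the cyclases lie between -0.28 and 0.65.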

How the data were processed

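RNA from 2 control and 2 KAT6A KO libraries was read with a stranded mRNA kit, per the labels' protocols. The deposited count of a gene symbol in a library is a whole number of reads. For counting and testing, featureCounts and DESeq2 are listed per the submitters' processing notes. No source used here names an aligner, the build and annotation, or how strand was handled. The authors' normalized counts, a signal per gene, are the counts divided by 1 factor per library (0.848 to 1.15). The authors' comparison table has no header, and its deposited columns were identified by order and values: mean signal, log2 fold change and standard error, a Wald score, p-value and adjusted p-value.

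Counts were filtered (filterByExpr), scaled by TMM and tested between the groups with edgeR 4.0.16 in R 4.3.3 (robust quasi-likelihood, group only, Benjamini-Hochberg, 0.05), and the procedure was tested on simulated data. Replicates differed by more than sampling noise (mean chi-square per gene 3.70 and 34.4). CPM uses scaled totals, and an SE is the size of the log2 fold change over the root of the test's F. Lengths, positions and GC content come from GENCODE M21, where 97.1% of symbols matched 1 gene. Counting intervals cover counting error only.

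Members and lists were chosen with earlier results of these data known. By the naming rule all members are named, and from each list the called genes (up to 2 a direction, or all of up to 5) or the gene with the most reads. Alternatives were RLE, upper quartile or no scaling, no filter or 1 CPM in 2 libraries, DESeq2 1.42.0, limma-voom (limma 3.58.1), edgeR's likelihood ratio test, a block for the replicate number, an offset for GC content (lowess, span 0.3), block and offset together, each library left out, no chromosome 11, and transcript length. A planned comparison of protein sequences was not run, and 1 gene that the rule for like patterns names is not reported here.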

Additional observations from a re-analysis of the deposited data

How the results depend on the processing

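Over all genes 2309 were called. The count was 3841 with the likelihood ratio test, 3760 with the replicate block, 1216 without chromosome 11, and 924 to 8420 with a library left out. The 2 called members became 1 with the GC-content offset and 1 with the replicate block and offset together. They became 0 without chromosome 11 (edgeR, with 1 of 6 members at an unadjusted p under 0.05), which removes Adcy1 and where Adcy3 lost its call at a log2 fold change of 0.46 against 0.49. They ranged from 0 to 5 with a library left out. For the other shifts the cause was not tested. The 16 called pathway genes (counted with guanylyl cyclases, of which none was called) became 25 with the likelihood ratio test and 4 to 55 with a library left out. The replicate block left 2 members called. Same-numbered libraries did not deviate together (correlation 0.09 over genes), and nothing in the labels pairs them. None of the called members and pathway genes changed direction under an alternative that tested it, and Adcy9, not called, was below 0 in 3 of 16. With the longest transcript as length 5 of 9 members kept their place in the order of levels. Adcy4 and Adcy8, with 23 and 2 reads in all, are limited by depth.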

Other observations

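Guanylyl cyclases, the related enzymes that make cyclic GMP, gave no call among 7 tested genes by edgeR or DESeq2, and 2 had an unadjusted p under 0.05. Npr1, the receptor cyclase for atrial natriuretic peptide and the member with the most reads, had 18.3 and 17.5 CPM in the controls and 24.2 and 21.8 CPM in the libraries labelled KO 1 and KO 2, a log2 fold change of 0.36 ± 0.12 (SE, edgeR adjusted p = 0.087). Its exons share 559 bases with Gm16048, an antisense gene.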
